A study of Saccharomyces cerevisiae with 36 samples.

Results

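The 4 genes of ribonucleotide reductase, RNR1, RNR2, RNR3 and RNR4, and the checkpoint gene HUG1 were followed through 36 Affymetrix arrays of Saccharomyces cerevisiae RNA. The members were chosen by name as the subunits of the enzyme and the damage-response gene usually studied with them, and each matched 1 probe set, so that 5 of the 5338 genes tested are described. Their systematic names are YER070W (RNR1), YJL026W (RNR2), YIL066C (RNR3), YGR180C (RNR4) and YML058W-A (HUG1). In the authors' deposited table of detection p-values all 5 probe sets were under 0.05 in all 36 columns, with a highest value of 0.000732.

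Ribonucleotide reductase turns ribonucleotides into the deoxyribonucleotides used for DNA synthesis and repair. In budding yeast the large subunit is Rnr1, with Rnr3 as a second form known for its strong induction by DNA damage, and the small subunit is a dimer of Rnr2 and Rnr4. Transcription of RNR1 is known to peak when cells enter S phase, whereas RNR2, RNR3, RNR4 and HUG1 are known targets of the repressor Rfx1 (Crt1), which the Mec1, Rad53 and Dun1 kinases relieve after damage. HUG1 encodes a small protein that is named for its induction by hydroxyurea, ultraviolet light and gamma radiation, and its product binds the small subunit. Its neighbour in the annotation is SML1, whose product binds and inhibits the large subunit.

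BY4742, a MATalpha laboratory strain, served as wild-type beside strains lacking MSN5 or MTR10, which encode carriers of the nuclear pore. Early log cultures in synthetic medium at 30 °C were split and kept for 30 min in the same medium (fed) or in medium lacking amino acids (starved), and cycloheximide at 100 ug/ml was given to every culture before harvest. Each lysate was separated on a sucrose gradient of 10 to 50%, and polysome RNA, non-polysome RNA and total RNA were hybridised separately. Each of the 18 combinations of strain, condition and kind of RNA had 2 arrays, described as biological replicates, and this number limits the precision of every value below. Levels are log2 RMA signals, given as replicate 1 and then replicate 2, and a probe set's level was not set against that of another probe set. Differences are on the log2 scale with the standard error (SE) of the fit, and calls were made at adjusted p below 0.05 over all 5338 genes. RMA gives every array the same distribution, so each level is relative to the other messages of the same RNA.

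The deleted genes served as a check of the strains. MSN5 lay between 3.64 and 4.75 on 10 of the 12 arrays of the msn5 strain but at 6.85 and 7.23 on its fed non-polysome arrays. MTR10 lay between 3.64 and 4.67 on 10 of the 12 arrays of the mtr10 strain but at 5.48 and 5.17 on its fed non-polysome arrays. Results that use those 4 arrays are therefore also given with total RNA in their place. Total RNA includes the polysome RNA, so a ratio of polysome to total RNA sets a part against the whole. Replicate arrays correlated at 0.965 to 0.995 over the genes tested, and 0 pairs were identical. In these bulk samples, fewer cells that express a gene and less RNA per cell cannot be told apart.

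**Figure D1:**
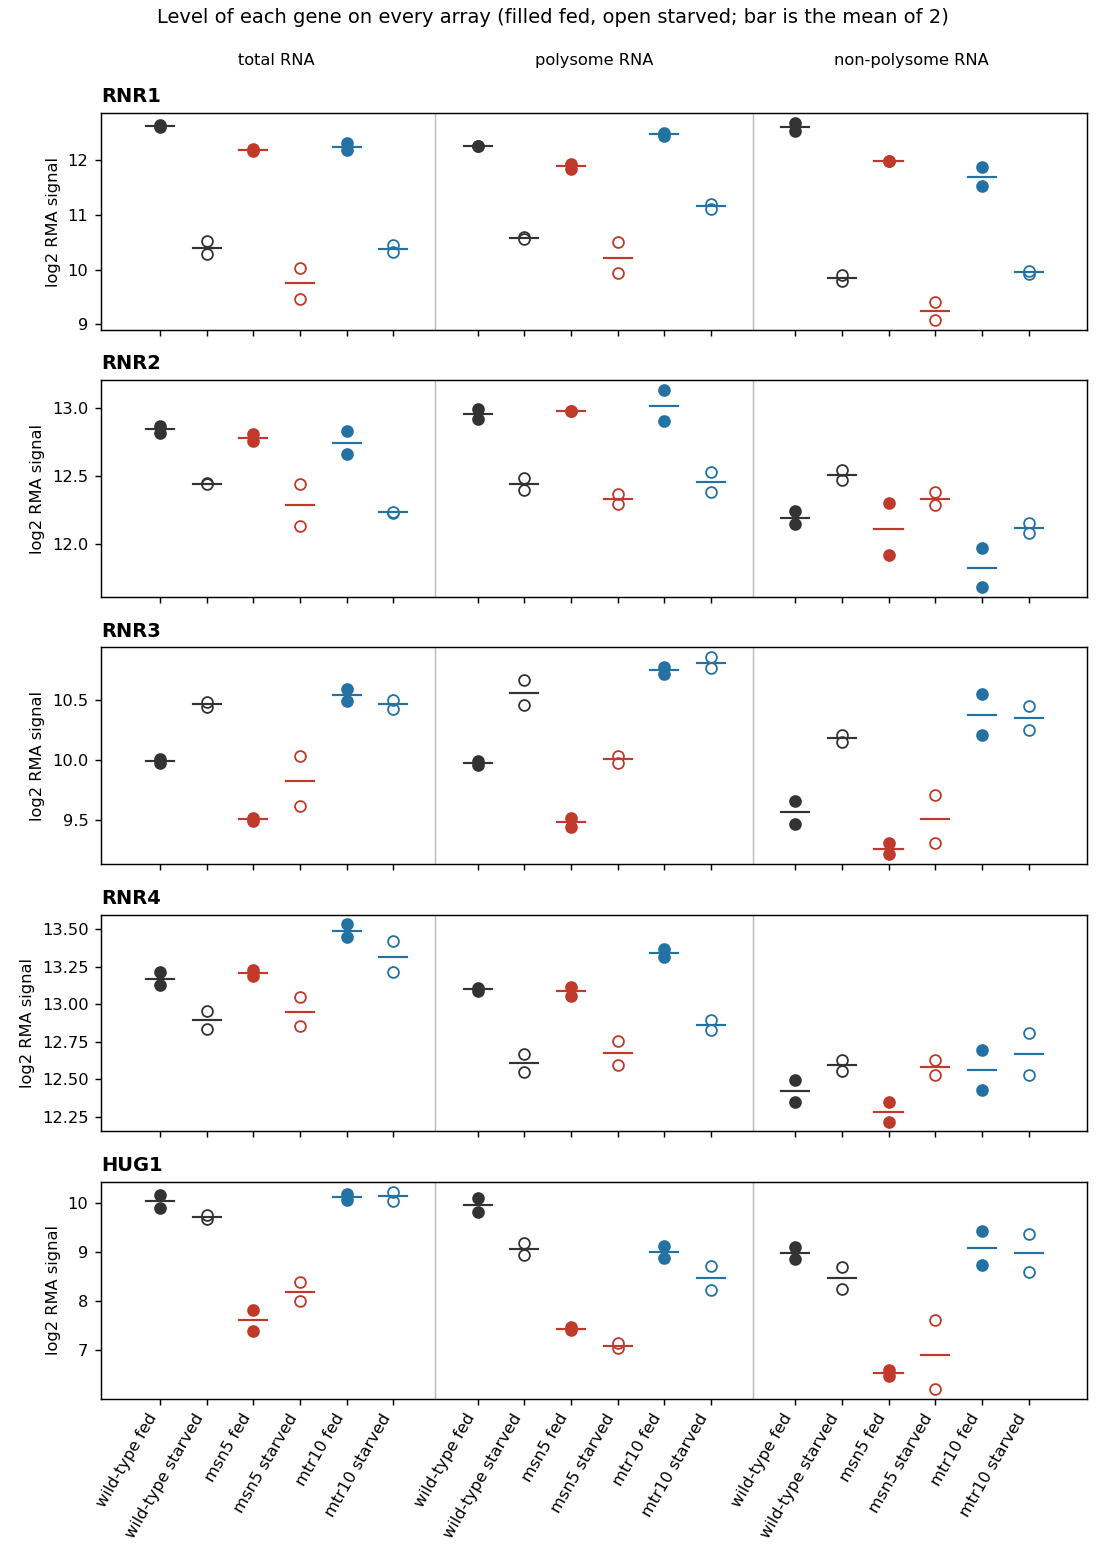
Level of each of the 5 genes on every array, one panel per gene, as log2 RMA signal on the vertical axis against strain and kind of RNA (T total, P polysome, NP non-polysome). Filled points are fed and open points starved cells, and the bar is the mean of 2 arrays. RNR1 drops from 12.18 or above to 10.52 or below in total RNA of every strain, and HUG1 is lowest in the msn5 strain.

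Withdrawal of amino acids changed 4 of the 5 genes in wild-type total RNA, with RNR1, RNR2 and RNR4 lower and RNR3 higher, against 64.2% of all genes called, 31.4% higher and 32.8% lower. RNR1, the major large subunit, stood at 12.65 and 12.62 on the fed and at 10.52 and 10.29 on the starved wild-type arrays. In the msn5 strain it went from 12.18 and 12.20 to 10.04 and 9.45, and in the mtr10 strain from 12.32 and 12.18 to 10.45 and 10.31. All starved arrays lay below all fed arrays, by far more than replicates differed. The fitted fall was 4.70-fold in wild-type (-2.23 ± 0.16, adjusted p = 1.30e-10), 5.45-fold in msn5 (-2.45 ± 0.16, adjusted p = 4.73e-11) and 3.66-fold in mtr10 (-1.87 ± 0.16, adjusted p = 6.94e-09).

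RNR3, the damage-inducible large subunit, went the other way in wild-type. Its level was 10.01 and 9.98 on the fed and 10.44 and 10.49 on the starved arrays, groups that did not overlap, and the rise was 0.47 ± 0.13 (adjusted p = 0.00334). In the msn5 strain it went from 9.52 and 9.50 to 10.04 and 9.61, a called rise of 0.32 ± 0.13 (adjusted p = 0.0390) that rested on the first starved array. Without that array the difference was 0.11 (adjusted p = 0.547), and the call was also lost without either fed array. In the mtr10 strain RNR3 was already high when fed, at 10.49 and 10.59, and lay at 10.43 and 10.50 when starved (-0.07 ± 0.13, adjusted p = 0.673). The 2 groups of mtr10 arrays overlapped.

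The small subunit genes showed smaller differences than RNR1. RNR2 went from 12.87 and 12.81 to 12.45 and 12.44 in wild-type, from 12.80 and 12.75 to 12.44 and 12.13 in msn5 and from 12.83 and 12.66 to 12.23 and 12.24 in mtr10. Fed and starved arrays did not overlap in any strain. The falls were -0.40 ± 0.12 (adjusted p = 0.00526), -0.49 ± 0.12 (adjusted p = 0.00105) and -0.51 ± 0.12 (adjusted p = 0.00101), in that order of strains. RNR4, the partner of RNR2, went from 13.13 and 13.21 to 12.96 and 12.83 in wild-type and from 13.19 and 13.23 to 13.05 and 12.85 in msn5. Both falls were called, at -0.28 ± 0.10 (adjusted p = 0.0257) and -0.26 ± 0.10 (adjusted p = 0.0379), and both hung on single arrays. The wild-type call was lost without the second fed array (-0.23, adjusted p = 0.137) or the second starved array (-0.21, adjusted p = 0.161), and the msn5 call without either fed array or without the second starved array (-0.16, adjusted p = 0.301). In mtr10 the levels were 13.53 and 13.45 fed and 13.42 and 13.22 starved, a difference of -0.17 ± 0.10 that was not called (adjusted p = 0.180). With MAS5 signals RNR4 was called lower in all 3 strains and the falls were larger, at -0.86 in wild-type, -0.51 in msn5 (adjusted p = 0.0114) and -0.53 in mtr10 (0.0108). The wild-type MAS5 value rests on 1 fed and 1 starved column.

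HUG1 was not called for starvation in total RNA of any strain with RMA values and all groups in the fit. Its wild-type levels were 9.92 and 10.17 fed and 9.68 and 9.76 starved (-0.32 ± 0.32, adjusted p = 0.374). In msn5 they were 7.83 and 7.40 fed and 8.39 and 8.00 starved (0.58 ± 0.32, adjusted p = 0.117), and in mtr10 10.08 and 10.18 fed and 10.06 and 10.24 starved (0.02 ± 0.32, adjusted p = 0.964). The arrays did not overlap in wild-type or msn5 and did in mtr10. The msn5 rise was called with MAS5 signals (0.84, adjusted p = 0.0181) and with the compared groups alone (0.58, adjusted p = 0.0499). Members called were thus 4 of 5 in msn5, against 61% of all genes (28.8% higher, 32.2% lower), and 2 of 5 in mtr10, both lower, against 48.7% (23.9% lower).

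Markers of MATa cells, the mating type opposite to that of the strain, moved with starvation in the same arrays. All 7 of 7 rose in wild-type total RNA (median difference 4.20), where their summed signal went from 10.86 to 11.01 on the fed to 15.05 to 15.15 on the starved arrays on the log2 scale. All 7 of 7 rose in msn5 (median 2.91), from 10.85 to between 13.75 and 14.02, and 4 of 7 in mtr10 (median 0.76), from between 13.27 and 13.36 to between 13.81 and 14.39. Of all genes 31.4% were called higher in wild-type and 28.8% in msn5, and 48.7% were called in either direction in mtr10. The summed signal of the 4 MATalpha markers was 15.10 to 15.11 fed and 14.79 to 14.80 starved in wild-type. It was 14.21 to 14.28 and 13.32 to 13.37 in msn5, and 15.16 to 15.22 and 14.58 to 14.63 in mtr10. On starvation MF(ALPHA)2 was called lower in wild-type (-1.26), msn5 (-4.42) and mtr10 (-1.28). STE3 was called higher in wild-type (0.41) and lower in mtr10 (-0.59). SAG1 was called lower in msn5 (-0.94) and mtr10 (-0.42), and MF(ALPHA)1 in msn5 (-0.57). In the comparison of strains, 7 of 7 MATa markers were higher in fed mtr10 than in fed wild-type (median 1.60), whereas in starved cells 5 of 7 were lower in mtr10 (median -0.82) and 6 of 7 lower in msn5 (median -1.50) than in wild-type. MATalpha markers were lower in msn5 than in wild-type, 3 of 4 in fed (median -1.05) and 4 of 4 in starved cells (median -1.70). Of all genes 5.36% were called lower in fed and 10.9% in starved msn5. In mtr10 18.8% were called higher when fed, and 54.2% were called in either direction when starved. The part of these markers in the results on the 5 genes was not tested.

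Polysome RNA, the messages bound by several ribosomes, gave the same directions as total RNA for the enzyme's genes in wild-type. In wild-type polysome RNA all 5 genes were called, 1 higher and 4 lower, against 69.3% of all genes (36.1% higher, 33.2% lower). RNR1 fell from 12.27 and 12.26 to 10.60 and 10.55 (-1.69 ± 0.16, adjusted p = 6.60e-09). RNR3 rose from 10.00 and 9.96 to 10.67 and 10.46 (0.58 ± 0.13, adjusted p = 0.000442). Neither pair of groups overlapped. RNR2 fell by 0.51 and RNR4 by 0.49 on the log2 scale, and HUG1 went from 9.82 and 10.12 to 8.95 and 9.19 (-0.90 ± 0.32, adjusted p = 0.0149). The HUG1 call was lost without the second fed array (-0.75, adjusted p = 0.101) or the first starved array (-0.78, adjusted p = 0.0894).

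In msn5 polysome RNA all 4 reductase genes were called, against 66.8% of all genes (34.2% higher, 32.6% lower), with RNR1 at -1.68 ± 0.16, RNR2 at -0.64 ± 0.12, RNR4 at -0.41 ± 0.10 and RNR3 at 0.53 ± 0.13. HUG1 lay at 7.41 and 7.48 fed and at 7.05 and 7.15 starved (-0.35 ± 0.32, adjusted p = 0.343). In mtr10, 3 of 5 were called lower, against 59.8% of all genes called and 27.2% called lower. RNR1 fell by 1.32, RNR2 by 0.56 and RNR4 by 0.48 on the log2 scale, whereas RNR3 (0.06 ± 0.13, adjusted p = 0.688) and HUG1 (-0.54 ± 0.32, adjusted p = 0.147) were not called. With the compared groups alone in the fit, the HUG1 fall was called in msn5 (adjusted p = 0.0464) and in mtr10 (0.0336). Fed and starved HUG1 arrays did not overlap in either mutant. The RNR3 arrays of fed and starved mtr10 overlapped.

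**Figure D2:**
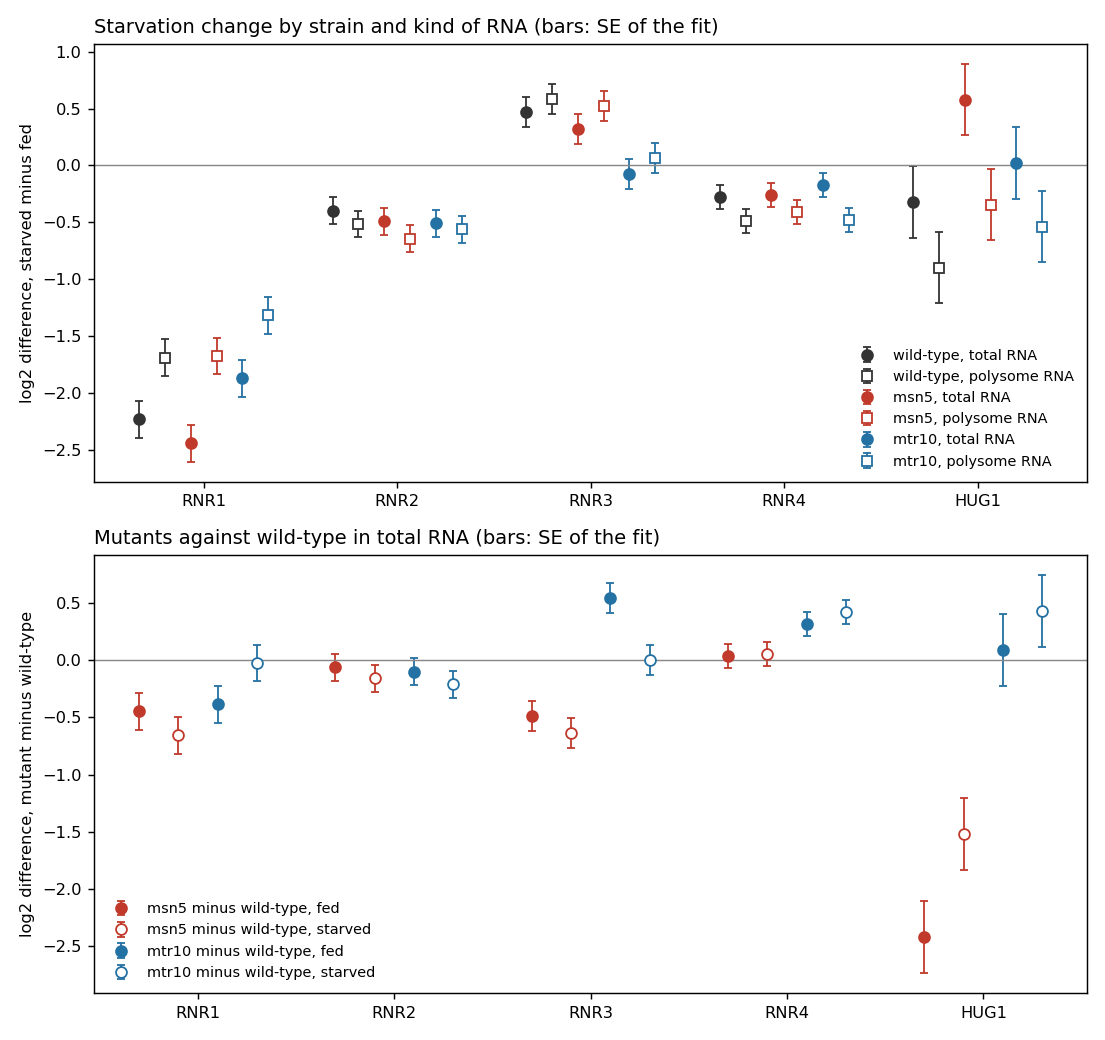
Log2 differences of the 5 genes, with the SE of the fit as bars. Starvation within each strain is shown for total RNA (circles) and polysome RNA (squares), and each mutant against wild-type for total RNA. The starvation fall of RNR1 in total RNA lies between -2.45 and -1.87 in the 3 strains. HUG1 is the gene furthest from 0 between msn5 and wild-type (-2.42 fed, -1.52 starved).

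HUG1 was the member that differed most between the msn5 strain and wild-type, and RNR3 differed in the same direction. In fed cells 2 of 5 members were called, both lower in msn5, against 11.9% of all genes and 5.36% called lower. HUG1 was at 7.83 and 7.40 in msn5 against 9.92 and 10.17 in wild-type, without overlap (-2.42 ± 0.32, adjusted p = 1.65e-05). After starvation it was at 8.39 and 8.00 against 9.68 and 9.76 (-1.52 ± 0.32, adjusted p = 0.00155), and the groups were again apart. Both HUG1 calls were kept with MAS5 signals (-2.74 fed and -1.58 starved), there with 1 wild-type column per condition, and without each of the arrays in turn. SML1, the neighbour of HUG1, was at 13.10 and 13.06 in fed msn5 and 13.12 and 13.08 in fed wild-type total RNA (-0.02 ± 0.12, adjusted p = 0.938), and its starved difference was -0.13 ± 0.12 (adjusted p = 0.463).

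RNR3 lay at 9.52 and 9.50 in fed msn5 against 10.01 and 9.98 in fed wild-type (-0.49 ± 0.13, adjusted p = 0.0166). After starvation it lay at 10.04 and 9.61 against 10.44 and 10.49 (-0.64 ± 0.13, adjusted p = 0.00137). The groups did not overlap in either condition. The fed call was lost without any one of its 4 arrays, with differences of -0.47 to -0.50 and adjusted p from 0.0751 to 0.117. The starved call was lost without the second msn5 array (-0.43, adjusted p = 0.0715) and with the compared groups alone in the fit (adjusted p = 0.0875).

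In starved cells 3 of 5 members were called lower in msn5, against 20.2% of all genes and 10.9% called lower, the third being RNR1. Its levels of 10.04 and 9.45 in msn5 lay below 10.52 and 10.29 in wild-type (-0.66 ± 0.16, adjusted p = 0.00569). The call hung on the second msn5 array (-0.37 without it, adjusted p = 0.207) and the first wild-type array (-0.54, adjusted p = 0.0815), and was not made with MAS5 signals (-0.52, adjusted p = 0.101) or with the compared groups alone (adjusted p = 0.135). In fed cells RNR1 differed by -0.44 ± 0.16 (adjusted p = 0.0796), with 12.18 and 12.20 against 12.65 and 12.62 and no overlap, and was called with a replicate block (adjusted p = 0.0331) and with the compared groups alone (0.00614). RNR2 and RNR4 stayed within 0.16 of wild-type in both conditions and were not called.

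Against wild-type, the mtr10 strain differed in RNR4 and, in the opposite direction to msn5, in RNR3. When fed, RNR3 and RNR4 were higher, 2 of 5 members against 39.5% of all genes, and 18.8% called higher. RNR3 was at 10.49 and 10.59 against 10.01 and 9.98 (0.55 ± 0.13, adjusted p = 0.00204), without overlap, and after starvation the strains' arrays overlapped (0.00 ± 0.13, adjusted p = 0.988). RNR4 was at 13.53 and 13.45 against 13.13 and 13.21 when fed (0.32 ± 0.10, adjusted p = 0.0185) and at 13.42 and 13.22 against 12.96 and 12.83 when starved (0.42 ± 0.10, adjusted p = 0.00179). Neither RNR4 comparison showed overlap. The fed RNR4 call was lost without the first wild-type array (0.28, adjusted p = 0.125) or the first mtr10 array (0.28, adjusted p = 0.116), and with MAS5 signals (0.34, adjusted p = 0.230). In starved cells RNR4 was the 1 member called, against 54.2% of all genes and 25.7% called higher.

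RNR1 in fed mtr10 was at 12.32 and 12.18, below 12.65 and 12.62 in wild-type, and was not called (-0.38 ± 0.16, adjusted p = 0.0638), though it was with a replicate block (0.0292) and with the compared groups alone (0.00973). RNR2 differed by -0.10 ± 0.12 fed and -0.21 ± 0.12 starved and HUG1 by 0.09 ± 0.32 fed and 0.43 ± 0.32 starved, none of them called. The starved HUG1 difference, from 10.06 and 10.24 against 9.68 and 9.76 without overlap, was called with the compared groups alone (adjusted p = 0.0177). SML1 was higher in fed mtr10, at 13.44 and 13.46 against 13.12 and 13.08 (0.35 ± 0.12, adjusted p = 0.0223), with a starved difference of 0.26 ± 0.12 that was not called (adjusted p = 0.0628). Both mutants were compared with the same wild-type arrays.

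The differences between strains in their response to starvation were tested directly and gave 0 calls among the 5 members with limma, against 0.693% of all genes for msn5 and 14.3% for mtr10. The member nearest to a call was RNR3, whose change in mtr10 was lower than in wild-type by -0.55 ± 0.18 (adjusted p = 0.0510). It was called in a fit of the compared groups alone (adjusted p = 0.0128), with a replicate block (adjusted p = 0.0311) and when both mutants' non-polysome arrays from fed cells were left out (adjusted p = 0.0406). For HUG1 the change in msn5 exceeded that in wild-type by 0.90 ± 0.45 (adjusted p = 0.545). For RNR1 the difference was -0.21 ± 0.23 for msn5 and 0.36 ± 0.23 for mtr10.

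The order of the 6 total RNA groups shows how each gene divided the samples. RNR1 and RNR2 had their 3 fed groups at the top and their 3 starved groups below. For RNR1 the neighbours fed mtr10 and fed msn5 overlapped, as did starved wild-type and starved mtr10. For RNR2 fed msn5 overlapped fed mtr10, and the starved groups overlapped their neighbours. RNR4 ran from fed mtr10 through starved mtr10, fed msn5, fed wild-type and starved msn5 to starved wild-type, with a whole span of 0.70 over 12 arrays. Its fed and starved mtr10 groups stood apart, and the fed msn5 arrays overlapped both starved mtr10 and fed wild-type. For RNR3 the first 3 places belonged to fed mtr10, starved mtr10 and starved wild-type, whose neighbours overlapped, and the lowest to fed msn5. HUG1 had the 4 groups of mtr10 and wild-type at the top, between 9.68 and 10.24, and the 2 msn5 groups at the bottom, between 7.40 and 8.39. Over all 36 arrays HUG1 spanned 4.02 and RNR1 3.61, against 1.31 to 1.64 for RNR2, RNR3 and RNR4.

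The distribution of the messages between polysome and non-polysome RNA differed between RNR1 and the small subunit genes. In fed wild-type cells 4 of 5 members were called higher in polysome RNA, against 51% of all genes called and 26.5% called higher. RNR2 was at 12.92 and 12.99 in polysome and 12.14 and 12.24 in non-polysome RNA (0.76 ± 0.12, adjusted p = 1.24e-05). RNR4 was at 13.11 and 13.09 against 12.35 and 12.50 (0.68 ± 0.10, adjusted p = 1.44e-05). Both genes had all polysome arrays above all non-polysome arrays. RNR1 was the exception, with 12.27 and 12.26 in polysome and 12.68 and 12.54 in non-polysome RNA (-0.34 ± 0.16, adjusted p = 0.0811), a difference that was called with a replicate block (adjusted p = 0.0404) and with the compared groups alone in the fit (0.0132), and was -0.09 with MAS5 signals (0.649).

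RNR3 (0.42 ± 0.13, adjusted p = 0.0109) and HUG1 (0.98 ± 0.32, adjusted p = 0.0129) were the other members called in fed wild-type. RNR3 had 10.00 and 9.96 in polysome against 9.47 and 9.66 in non-polysome RNA, and HUG1 had 9.82 and 10.12 against 8.87 and 9.12, both without overlap. The RNR3 call was lost without the first polysome array (0.40, adjusted p = 0.0582) or the first non-polysome array (0.32, adjusted p = 0.116). The HUG1 call was lost without the second polysome array (0.83, adjusted p = 0.0938) or the first non-polysome array (0.85, adjusted p = 0.0869).

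The pattern differed in starved wild-type cells. RNR1 was there higher in polysome RNA, at 10.60 and 10.55 against 9.79 and 9.91 (0.73 ± 0.16, adjusted p = 0.000526), without overlap. RNR2 was at 12.48 and 12.40 in polysome and 12.47 and 12.54 in non-polysome RNA (-0.07 ± 0.12, adjusted p = 0.633), and RNR4 at 12.67 and 12.55 against 12.56 and 12.63 (0.02 ± 0.10, adjusted p = 0.899). For both small subunit genes the arrays of the 2 kinds of RNA overlapped. RNR3 kept a difference of 0.38 ± 0.13 (adjusted p = 0.0152), which was lost without the first polysome array (0.27, adjusted p = 0.155) or the second non-polysome array (0.35, adjusted p = 0.0736), and HUG1 was not called (0.59 ± 0.32, adjusted p = 0.107). That made 2 of 5 members called higher in polysome RNA, against 63.1% of all genes called and 34.1% called higher. With the compared groups alone in the fit HUG1 was called higher as well (adjusted p = 0.0431).

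**Figure D3:**
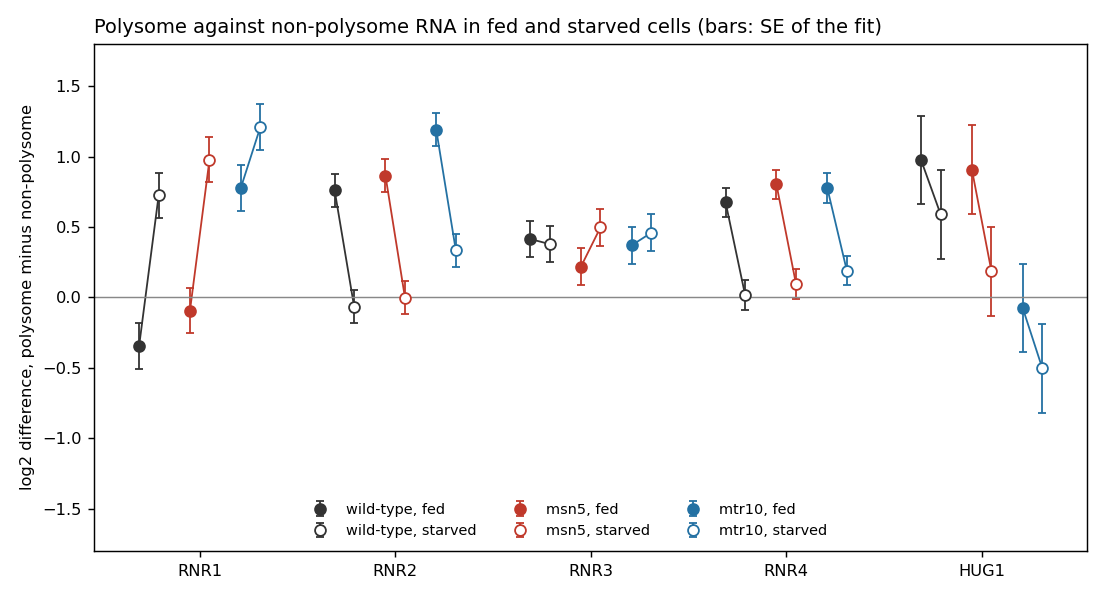
Log2 difference between polysome and non-polysome RNA of the 5 genes in fed (filled) and starved (open) cells of each strain, with the SE of the fit as bars. In all 3 strains the starved value of RNR1 lies above the fed one and the starved values of RNR2 and RNR4 lie below the fed ones.

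The change of the ratio on starvation was itself tested. In wild-type, RNR1 shifted toward polysomes by 1.07 ± 0.23 (adjusted p = 0.00112), while RNR2 shifted away by -0.83 ± 0.16 (adjusted p = 0.000632) and RNR4 by -0.66 ± 0.15 (adjusted p = 0.00162). These 3 of 5 calls stand beside 39.7% of all genes, of which 23.3% shifted toward and 16.4% away from polysomes. RNR3 (-0.04 ± 0.18) and HUG1 (-0.39 ± 0.45) were not called. With MAS5 signals the wild-type shifts were 0.71, -1.36 and -1.08 for RNR1, RNR2 and RNR4, each again called. All 3 remained called without any single array. Against total RNA in place of non-polysome RNA, an alternative added after the data were seen for wild-type, none of the 3 was called (0.54, -0.12 and -0.21, adjusted p = 0.258, 0.804 and 0.531), and calls over all genes went from 2118 to 46. The 4 fed and 2 starved wild-type calls were not made against total RNA either, with 0 members called in each condition. Polysome against total RNA sets a part against the whole, so it is not the same measure as polysome against non-polysome RNA.

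In the msn5 strain RNR1 lay at 11.94 and 11.85 in fed polysome and 11.99 and 11.98 in fed non-polysome RNA, and at 10.50 and 9.93 against 9.40 and 9.07 after starvation. RNR2 lay at 12.97 and 12.98 against 11.92 and 12.30 fed, and at 12.30 and 12.37 against 12.28 and 12.38 starved. RNR4 lay at 13.06 and 13.12 against 12.22 and 12.35 fed, and at 12.60 and 12.76 against 12.53 and 12.63 starved. The polysome arrays of RNR1 lay below the non-polysome arrays when fed and above them when starved. The fed RNR1 difference was small and not called (-0.09 ± 0.16, adjusted p = 0.653), and was 0.00027 with MAS5 signals (adjusted p = 0.999). The polysome arrays of RNR2 and RNR4 lay above the non-polysome arrays when fed and overlapped them when starved. The shifts were 1.07 ± 0.23 for RNR1 (adjusted p = 0.000894), -0.87 ± 0.16 for RNR2 (adjusted p = 0.000347) and -0.71 ± 0.15 for RNR4 (adjusted p = 0.000791), 3 of 5 members against 43.8% of all genes (25.2% toward polysomes, 18.6% away).

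In the mtr10 strain RNR1 was already higher in fed polysome RNA, at 12.51 and 12.45 against 11.53 and 11.87, and was at 11.20 and 11.12 against 9.93 and 9.97 when starved. Its ratio was 0.78 ± 0.16 fed (adjusted p = 0.000288) and 1.21 ± 0.16 starved (adjusted p = 9.92e-07), and the shift of 0.43 ± 0.23 was not called (adjusted p = 0.149). RNR2 was at 13.13 and 12.90 against 11.97 and 11.68 fed, and at 12.52 and 12.38 against 12.16 and 12.08 starved. RNR4 was at 13.37 and 13.31 against 12.70 and 12.43 fed, and at 12.89 and 12.83 against 12.81 and 12.53 starved. For all 3 genes the 2 kinds of RNA did not overlap in either condition. RNR2 shifted by -0.85 ± 0.16 (adjusted p = 0.000691) and RNR4 by -0.59 ± 0.15 (adjusted p = 0.00503), 2 of 5 members against 32.4% of all genes and 15% shifted away.

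Both mutants' non-polysome arrays from fed cells, on which the deleted genes were not as low as elsewhere, enter these shifts. With total RNA as the second pool in place of non-polysome RNA, 0 members were called in msn5 and 0 in mtr10, and of all genes 4 and 5. The values were then 0.77 for RNR1, -0.15 for RNR2 and -0.15 for RNR4 in msn5, and -0.05 for RNR2 and -0.31 for RNR4 in mtr10. The fed calls of the mutants were 3 of 5 higher in msn5, against 54.6% of all genes (28.3% higher), and 4 of 5 higher in mtr10, against 59.5% (31.3% higher). In both strains none of them was made against total RNA, where HUG1 in fed mtr10 was instead called lower in polysome RNA (-1.11, adjusted p = 0.0164). In starved msn5 cells, which do not use those arrays, RNR1 (0.98 ± 0.16, adjusted p = 1.68e-05) and RNR3 (0.50 ± 0.13, adjusted p = 0.00203) were called higher in polysome RNA than in non-polysome RNA, against 67.6% of all genes and 36% called higher. The RNR3 call was lost without the second starved non-polysome array of msn5 (0.30, adjusted p = 0.0736) and against total RNA (0.18, adjusted p = 0.352), where RNR1 stayed called (0.47, adjusted p = 0.0411) and HUG1 was called lower in polysome RNA (-1.09, adjusted p = 0.0164).

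In starved mtr10, 3 of 5 members were called higher in polysome RNA, against 68.4% of all genes called and 35.5% called higher. RNR1 was one, RNR3 had 10.86 and 10.77 against 10.25 and 10.45 (0.46 ± 0.13, adjusted p = 0.00370), and RNR2 had a ratio of 0.34 ± 0.12 (adjusted p = 0.0146). The RNR2 call was lost without the first polysome array (0.26, adjusted p = 0.119), the second non-polysome array (0.30, adjusted p = 0.0794) and with MAS5 signals (0.15, adjusted p = 0.332). The RNR3 call was lost without the first non-polysome array (0.36, adjusted p = 0.0565). HUG1 stood at 8.23 and 8.73 in polysome and 9.37 and 8.60 in non-polysome RNA of starved mtr10 (-0.50 ± 0.32, adjusted p = 0.162), with overlapping arrays. Against total RNA, RNR1 (0.78, adjusted p = 0.000656) and RNR3 (0.35, adjusted p = 0.0384) stayed called, RNR2 was not (0.22, adjusted p = 0.135), and RNR4 (-0.46, adjusted p = 0.00161) and HUG1 (-1.67, adjusted p = 0.000298) were called lower in polysome RNA.

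HUG1 had the widest spread between replicates of the 5 genes, with starved msn5 non-polysome levels of 7.61 and 6.22. Its shift on starvation in msn5 was -0.72 ± 0.45 (adjusted p = 0.195), and hung on which of those arrays was kept. Without the second of them its shift was -1.42, and without the first it was -0.02. In fed msn5 it was higher in polysome RNA (7.41 and 7.48 against 6.61 and 6.47, 0.91 ± 0.32, adjusted p = 0.0185), but this call was lost without either polysome array or without the second non-polysome array. With MAS5 signals the value was 0.15 (adjusted p = 0.685), and with total RNA as the second pool -0.17. Total RNA exceeded both polysome and non-polysome RNA on all arrays for RNR4 in 6 of 6 combinations of strain and condition and for HUG1 in 4 of 6, against 1 for RNR1 and 0 for RNR2 and RNR3. The same count was not made over all genes, so it does not set these members apart from other genes.

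The genes around the enzyme were read as 5 lists, namely its regulators, the checkpoint, deoxynucleotide synthesis with the reductants, damage-induced repair genes, and replication and G1/S genes. In starved wild-type total RNA the replication and G1/S list moved as RNR1 did, with 20 of 22 genes lower and 0 higher and a median difference of -0.91 against -0.03 over all genes, of which 32.8% were lower and 31.4% higher. CLB6, an S-phase cyclin, fell by 2.90, TOS4, a G1/S target, by 1.72, and POL30, the sliding clamp of replication, by 1.33 on the log2 scale. In msn5 22 of 22 fell (median -0.88), and in mtr10 17 of 22 (median -0.47), beside 32.2% and 23.9% of all genes called lower. The deoxynucleotide list had 9 of 15 genes lower and 3 higher in wild-type (median -0.44), among them CDC21, the thymidylate synthase, at -1.93 and DCD1, the dCMP deaminase, at -0.90. GRX4, a glutaredoxin that takes part in iron sensing, rose by 1.71, and DRE2, which delivers electrons for cofactor assembly of the small subunit, by 0.66.

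The checkpoint list had 6 of 15 genes lower and 3 higher in starved wild-type (median -0.01), beside 32.8% and 31.4% of all genes. RAD53, the effector kinase, was at -1.22 and DUN1, the kinase below it, at -0.65, whereas TEL1, a sensor kinase, was at 0.61. Of 12 regulators 2 rose and 2 fell (median 0.02), a smaller share than over all genes. CRT10, a regulator of RNR transcription, rose by 0.69 and WTM1, the nuclear anchor of the small subunit, by 0.58, while MOT3, a transcriptional repressor, fell by 0.73 and TUP1, the corepressor that works with Rfx1, by 0.65. Of 10 measured damage-induced repair genes 3 rose and 2 fell (median 0.28), with RAD54, a recombination factor, at 0.89 and RAD23, a nucleotide excision repair factor, at -1.23.

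In fed msn5 against wild-type, 0 of 12 regulators and 0 of 15 checkpoint genes were called, and 1 of 10 repair genes was higher and 1 lower, beside 11.9% of all genes called. The lower one was PLM2, a G1/S and damage-responsive gene, at -0.83 ± 0.15, and it was at -1.54 ± 0.15 in starved cells. GRX1, a glutaredoxin, was higher at 0.65 in both conditions. Replication genes gave 4 of 22 lower and 0 higher in fed msn5, beside 5.36% of all genes called lower. Among them CLB6 was at -0.85, MCD1, the cohesin subunit, at -0.48 and CDC6, a helicase loader, at -0.42. The list median was 0.02 against -0.02 over all genes.

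In mtr10 listed genes were called in both directions, as were 39.5% of all genes in fed (18.8% higher) and 54.2% in starved cells (25.7% higher). In fed cells 4 of 15 checkpoint genes were higher and 5 lower than in wild-type, with RAD9, a checkpoint adaptor, at 1.07, LCD1, the partner of Mec1, at 1.05, DUN1 at 0.75 and MEC1 at -0.61. PLM2 was at 1.32 and DDI3 at 1.13 among 3 of 10 repair genes that were higher, and 2 were lower. DDI3 has a near-identical copy, DDI2, so its signal cannot be assigned to either gene. Of the regulators DIF1, which carries the small subunit to the nucleus, was at 0.65, SML1 at 0.35 and WTM1 at -0.57. In starved cells 14 of 22 replication genes were higher and 3 lower in mtr10 than in wild-type (median 0.48 against -0.03 over all genes), and 7 of 15 checkpoint genes were higher and 5 lower (median 0.34). DUN1 was then at 1.23, RAD9 at 1.52 and MCD1 at 1.31.

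The shift between the pools was also read for the lists. In wild-type, the deoxynucleotide list had 5 of 15 genes shifted away from polysomes on starvation and 0 toward them (median -0.31 against 0.08 over all genes, of which 16.4% shifted away and 23.3% toward), the direction of RNR2 and RNR4. The replication list was near those shares, with 5 of 22 toward and 2 away (median 0.10), the regulators had 5 of 12 toward and 2 away (median 0.31) and the checkpoint list 5 of 15 toward and 1 away (median 0.24). The list counts were not repeated with total RNA as the second pool. There the calls over all genes went from 2118 to 46, and RNR2 and RNR4 were not called.

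Genes whose pattern was most like that of each member were taken by Pearson correlation over the 18 group means, given without a test because groups share strains, conditions and pools. RNR1 was most like RLP24 (r = 0.97), KAP123 (0.97) and RIX7 (0.96), RNR2 like RNA1 (0.96), SCS2 (0.94) and PRO3 (0.93), and RNR3 like HBT1 (0.96), YNL058C (0.95) and YIL082W-A (0.93). RNR4 was most like TRM9 (0.92), FBA1 (0.87) and MCA1 (0.87). HUG1 was most like DAN1 (0.85), SAG1 (0.80) and MSN5 (0.80), the last being the gene deleted in the strain where HUG1 was lowest and SAG1 one of the MATalpha markers. Among the members RNR2 and RNR4 were closest (0.70), followed by RNR3 and HUG1 (0.64), while RNR1 and RNR2 had 0.45 and RNR1 and RNR3 -0.10. RNR1 and RNR3 are paralogues, and whether their probe sets share signal was not tested.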

How the data were processed

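RNA from 36 samples was measured on Affymetrix yeast arrays, 2 in each of 18 groups taken from the labels. The deposited series values are log2 signals that the authors made with RMA in the affy package, per the submitters' processing notes; their versions and the genome build are not named in the sources at hand. A second deposited matrix holds linear MAS5 signals (intensity) and a detection p-value for each of 10928 probe sets. For an alternative these were taken as log2 and centred on each array's median, and 2 columns that matched another condition than the one they name were left out, leaving 34 (1 column each for fed and starved wild-type total RNA). Every MAS5 comparison that uses wild-type total RNA therefore has 1 of its columns per condition.

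Of 5684 probe sets in the series values, 5379 have 1 gene, and 5338 genes were tested with the brightest probe set of each. Entrez numbers gave 12 updated symbols. A filter on Present calls at a detection p of 0.05 removed 0 genes, and 5276 were Present on all 36 arrays. A group-means model was fitted by limma (3.58.1, under R 4.3.3) through lmFit, contrasts.fit and eBayes (two-sided, 18 residual and 3.92 prior degrees of freedom) in 21 comparisons, adjusted by Benjamini and Hochberg over all genes. The fit was tested on simulated data.

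The members and lists were chosen with earlier results of these data known. Listed genes are named by a rule of at most 3 called genes per direction with the smallest p, and the genes most like each member as its 3 highest correlations. Alternatives were MAS5 signals, the compared groups alone, trend and robust moderation, genes Present on all arrays, a replicate block, each array left out, and, for the mutants, total RNA as the second pool. Leaving out both mutants' non-polysome arrays from fed cells, and total RNA as the second pool in wild-type and in starved mutants, were added after the data were seen. Nothing in the labels says how the replicate cultures were separated beyond the word biological.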

Additional observations from a re-analysis of the deposited data

Results flagged for a closer look

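RNR1 in fed cells had both polysome arrays below both non-polysome arrays in wild-type (-0.34 on the log2 scale) and both above in mtr10 (0.78), a difference between the strains of 1.12. It was marked because every array of one strain moved opposite to every array of the other. The difference was not tested. With MAS5 signals the wild-type value was -0.09 (adjusted p = 0.649). The fed non-polysome arrays of mtr10, on which MTR10 was at 5.48 and 5.17 rather than below 4.67, enter the second value, and with total RNA in their place the mtr10 value was 0.23 (adjusted p = 0.363).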

How the results depend on the processing

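The 105 results of single members kept their direction and their side of the threshold with trend and robust moderation and with genes Present on all arrays, and 98 of 105 kept their side of the threshold with MAS5 signals, 13 of them uncalled differences that changed sign. With MAS5 signals the starved msn5 polysome to non-polysome ratio of RNR4 turned to -0.43 (adjusted p = 0.0264), and members called in fed mtr10 against wild-type went from 2 to 1. With the compared groups alone in the fit, members called went from 3 to 1 in starved msn5 against wild-type, from 1 to 2 in starved mtr10 against wild-type, from 0 to 1 for the mtr10 difference in starvation response, from 2 to 1 in starved msn5 polysome against non-polysome RNA and from 2 to 1 for the mtr10 shift, where RNR4 just missed (adjusted p = 0.0503). With total RNA as the second pool (planned for the fed mutants and their shifts, added later for the rest), members called went from 4 to 0 in fed and 2 to 0 in starved wild-type, from 3 to 0 in fed msn5, and to 0 for all 3 shifts. In fed mtr10 all 4 calls were lost and HUG1 was newly called lower (-1.11), which leaves 1. RNR3 (-0.013), RNR4 (-0.070) and HUG1 (-0.074) turned in fed wild-type, RNR4 (-0.12) and HUG1 (-0.17) in fed msn5, RNR4 (-0.15) in fed mtr10, HUG1 (-1.09) in starved msn5 and RNR4 (-0.46) in starved mtr10. Without both mutants' non-polysome arrays from fed cells, 1 member was called for the mtr10 difference in starvation response. The cause of these changes was not tested.

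Replicate numbers did not pair the samples throughout, since the correlation of same-numbered deviations ran from -0.66 to 0.64 over 45 pairs of groups, with 30 above 0.1. In msn5 the pairs with the fed polysome group ran from -0.66 to -0.23, and the other pairs from 0.05 to 0.57. The reason was not tested, and the block took the replicate numbers as given. With a replicate block 101 of 105 member results were kept, RNR3 was called for the mtr10 difference in starvation response (members called 1), and RNR1 was called in fed msn5 (adjusted p = 0.0331) and fed mtr10 (0.0292) against wild-type and between the fed wild-type pools (0.0404).

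Over all genes, calls in fed msn5 against wild-type went from 637 to 342 with MAS5 signals and 1530 with the compared groups alone, and in starved msn5 against wild-type from 1078 to 433 and 319. The msn5 difference in starvation response went from 37 to 10, 7 and, with the block, 90, and that of mtr10 from 763 to 264 with MAS5 signals. The compared groups alone gave 2062 in place of 3609 in starved msn5 polysome against non-polysome RNA and 895 in place of 2337 for the msn5 shift. Total RNA as the second pool gave 801 in place of 2913 in fed msn5, 1019 in place of 3175 in fed mtr10, and 46, 4 and 5 in place of 2118, 2337 and 1731 for the shifts in wild-type, msn5 and mtr10. It gave 670 in place of 2724 in fed and 1247 in place of 3370 in starved wild-type, 1143 in place of 3609 in starved msn5 and 2186 in place of 3652 in starved mtr10.

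With each array left out in turn, 482 member results kept their side of the threshold (28 of them uncalled differences that changed sign), 34 lost their call and 4 gained one; the group left with 1 array is then assumed to vary like the others. Members called ranged over 3 to 4 for starvation in wild-type total RNA, 2 to 3 in msn5 and 2 to 2 in mtr10. They ranged over 1 to 1 for fed and 1 to 3 for starved msn5 against wild-type, 1 to 2 for fed and 1 to 1 for starved mtr10 against wild-type, and 0 to 0 for both differences in starvation response. For polysome against non-polysome RNA the ranges, fed and starved, were 2 to 4 and 1 to 2 in wild-type, 2 to 3 and 1 to 3 in msn5, and 3 to 4 and 2 to 3 in mtr10. For the shifts they were 3 to 3 in wild-type, 3 to 4 in msn5 and 2 to 2 in mtr10, and for starvation in polysome RNA 4 to 5, 4 to 4 and 3 to 3. Calls over all genes ranged over 238 to 346 in fed and 417 to 954 in starved msn5 against wild-type, 1384 to 1516 in fed mtr10 against wild-type, 15 to 57 and 443 to 665 for the msn5 and mtr10 differences in starvation response, and 1036 to 1782 for the mtr10 shift. HUG1 was called lower in msn5 than in wild-type, fed and starved, under every alternative run.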
